A study of Oryza sativa with 12 samples.

Results

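PT1, PT4 and PT8 are 3 rice genes of the PHT1 family, which encodes phosphate transporters of the plasma membrane. The genes were chosen by name, together with all probe sets that the annotation of the array gives to them alone. That made 3 of 17905 genes with such a probe set on the array and 6 of its 57194 non-control probe sets. Of these 6, 5 were among the 28597 probe sets that passed a filter on low signal and were tested. Their transcript levels were measured in the phr1 mutant, the phr3 mutant, the triple mutant lacking PHR1, PHR2 and PHR3 (phr123) and the wild type (WT), with 3 arrays per genotype. Plants of all 4 genotypes grew for 14 days in hydroponic culture with 200 µM phosphate and then for 7 days without phosphate, so the WT plants were starved as well. The labels name the cultivar Nipponbare for WT only and give no allele, clone number or background for the mutants, and they name leaf as the tissue where the protocol names shoots. Each array carried RNA of a whole tissue sample, in which fewer cells of a type and less RNA per cell cannot be told apart. The labels call the 3 samples of a genotype biological repeats but do not say how many plants each held. The spread behind the p-values of the linear fits is that between samples of a genotype, pooled over the 4 genotypes, and not that between plants.

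PHT1 proteins carry phosphate into the cell together with protons, at the root surface and between the tissues of the plant. The PHR proteins are MYB transcription factors that activate phosphate starvation genes through a short promoter element, and SPX proteins hold them back while phosphate is plentiful. In rice, PT1 is known as a member expressed in roots and shoots also when phosphate is supplied, while PT4 and PT8 are known for phosphate uptake and for moving phosphate within the plant.

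PT1 (LOC4331635) lies on chromosome 3, PT4 (LOC4335115) on chromosome 4 and PT8 (LOC4348741) on chromosome 10, according to the RefSeq table of assembly ASM3414082v1. Each has another PHT1 gene as its direct neighbour. PT12 stands next to PT1, with 1 gene between PT1 and PT2. PT13 stands next to PT4, with 2 genes between PT4 and PT5, and PT3 stands next to PT8. RefSeq lists 1 transcript for PT1, 4 for PT4 and 1 for PT8. The 2 probe sets of PT1, Os.12092.1.S1_at and Os.12092.2.S1_a_at, were designed on different cDNAs, and the name of the second marks it as shared by alternative transcripts. PT4 had 1 probe set, Os.13467.1.S1_x_at. Of the 3 probe sets of PT8, Os.46160.2.S1_at and Os.46160.2.S1_x_at were designed on one cDNA and Os.46160.1.S1_at on another. An ending in x_at marks a probe set in which some probes may also match other transcripts, so the PT4 value and one PT8 value can hold signal of related genes. The values are MAS5 signals on a linear scale, and no member's signal is read against another's as a level, since the brightness of a probe set also depends on its probes.

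The 5 tested probe sets were bright in starved shoots, and the genotypes moved them in 2 directions. In phr123, PT4 and the first PT1 probe set fell, while both bright PT8 probe sets and the second PT1 probe set rose. In phr1, PT4 fell, and so did 1 of the 2 PT8 probe sets. In phr3, 0 of the 5 passed the test. As a measure of the lowest signal that can be read, the 95th percentile of the reporter controls, probe sets for marker genes of other organisms, was taken on each array, and it lay between 48.4 and 87.6. All 5 tested probe sets exceeded it on all 12 arrays.

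**Figure D1:**
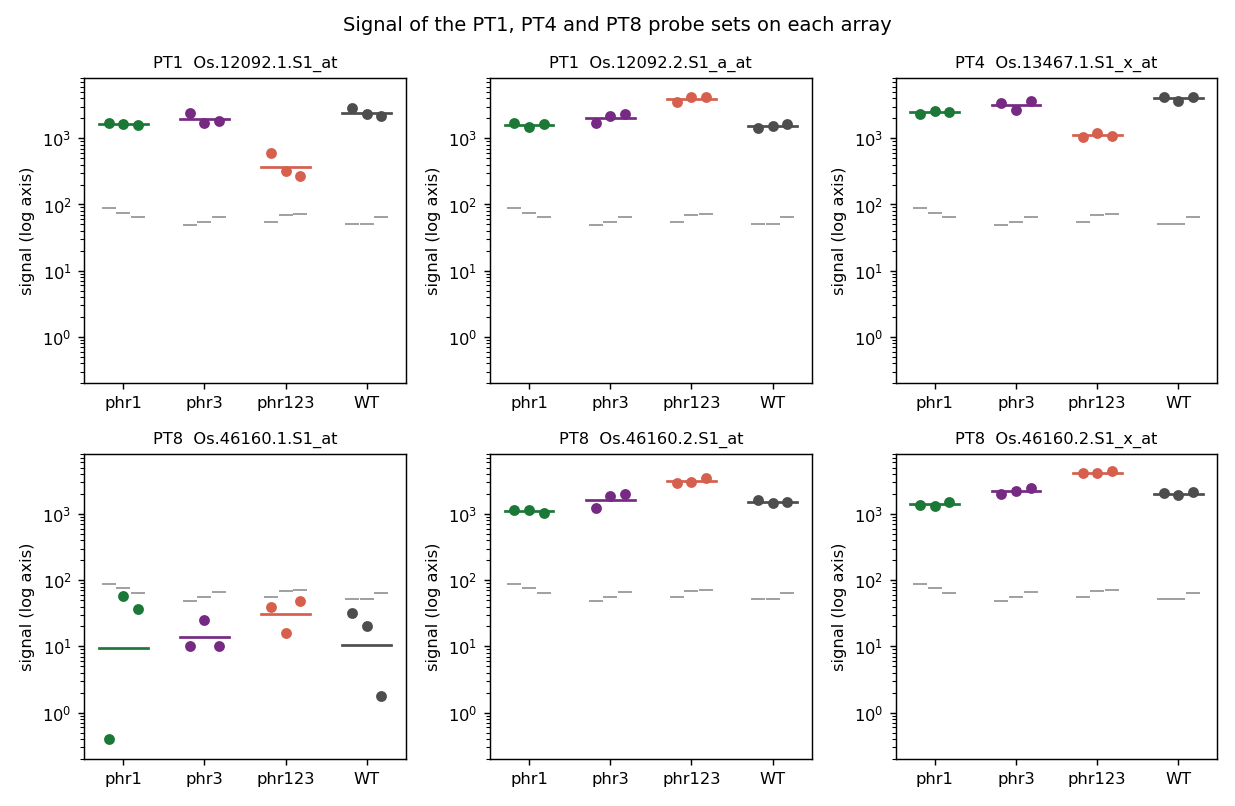
Signal of each of the 6 probe sets (vertical axis, log scale) in phr1, phr3, phr123 and WT. Points are single arrays, coloured lines are geometric means of 3 arrays, and short grey marks are the 95th percentile of the reporter controls on the same array. The phr123 points of Os.12092.1.S1_at, between 273.6 and 603.0, and of Os.13467.1.S1_x_at lie below all other genotypes, while those of Os.12092.2.S1_a_at and of the 2 bright PT8 probe sets lie above them.

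The targeted genes were read first as a check of the labels. PHR1 had signals of 404.3, 514.2 and 559.5 in phr1, of 569.1, 753.0 and 810.6 in phr123, and of 876.9, 1096.2 and 1153.8 in WT. It was lower than in WT by 1.08 on the log2 scale in phr1 (limma adjusted p = 0.00382) and by 0.56 in phr123 (0.0116). PHR2 had 18.3, 43.8 and 24.3 in phr123, against 1750.2, 2031.1 and 1814.5 in WT, so that it was lower by a factor of at least 28.7 (limma adjusted p = 3.21e-10). PHR3 had 57.7, 118.9 and 94.5 in phr3, and 462.4, 469.1 and 386.7 in WT. In phr123 the PHR3 signal was 1186.6 on the array labelled replicate 1, above every WT array, and 172.6 and 118.3 on the others. The array labelled phr123 replicate 1 thus went against its label at PHR3, though not at PHR2, and the member values in phr123 are given below with and without it, while the likeness between genes rests on all 12 arrays. Where the mutations lie relative to these probe sets is not given in the labels, so a signal that stays high need not mean an intact gene. Of 6 measured leaf marker genes, 5 were tested, while RBCS1, a small subunit gene of Rubisco, had signals from 3.4 to 85.5, at or below the reporter level on 9 of the 12 arrays, and was not tested. The summed signal of the 6 ran from 228188.5 to 274454.3 in phr123 and from 342642.0 to 349294.8 in WT, and all 5 tested markers were lower in phr123 by the brightest probe set of each, with a second GLO1 probe set higher (log2 difference 0.59, adjusted p = 0.00385). The summed signal of 7 root marker genes ran from 1147.6 to 1493.7 in phr123 and from 1248.8 to 1451.7 in WT. Among them, the silicon exporter LSI2 was at or below the reporter level on all 12 arrays. LSI1, with signals from 810.1 to 1224.5, and IRT1, from 107.8 to 189.9, were above it on all 12, and LSI1 made up most of the sum. Of the 4 tested root markers, 0 changed in any mutant. Of 5 markers of dividing tissue, 0 changed in phr1, 2 were lower in phr3 and 3 in phr123, with sums from 1461.9 to 1696.3 in phr1, from 612.4 to 712.6 in phr3, from 734.7 to 890.4 in phr123 and from 1131.2 to 1404.7 in WT. Beside these counts, 0.934% of all tested probe sets changed in phr1, 1.99% in phr3 and 41.5% in phr123. Those that fell made up 0.731% in phr3 and 21% in phr123. The part of the marker shifts in the results below was not tested.

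PT4 fell in both phr1 and phr123. Its signal was 2349.9, 2562.9 and 2476.0 in phr1, 3415.5, 2676.0 and 3634.9 in phr3, 1062.4, 1197.2 and 1091.8 in phr123, and 4266.6, 3692.3 and 4266.1 in WT. No mutant array reached the lowest WT array, and the phr123 arrays lay below all others. The fall in phr1 was 0.72 on the log2 scale (SE 0.1122, 1.65-fold, limma adjusted p = 0.0059), in a comparison where 139 of the tested probe sets fell (0.486%) and 128 rose (0.448%). With each array centred on its median these counts were 182 lower and 62 higher, and PT4 differed by −0.92 (adjusted p = 0.0195). In phr3 the log2 difference was −0.34 (95% interval −0.58 to −0.10), which did not pass the test (adjusted p = 0.189) in a comparison where 1.26% of tested probe sets rose and 0.731% fell.

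In phr123, PT4 averaged 1117 ± 70.88, against 4075 ± 331.4 in WT (mean signal ± SD, n = 3 arrays each). It fell 3.64-fold (log2 difference −1.87, SE 0.1122, adjusted p = 1.65e-08), in a comparison where 41.5% of all tested probe sets changed, 20.5% upward and 21% downward. Of all tested probe sets, 4.34% fell at least as far. PT4 was also lower in phr123 than in phr1 (log2 difference −1.14, adjusted p = 1.84e-06), where 42.8% of all tested probe sets changed, 20.8% (5960) upward and 22% (6285) downward, or 8667 and 3685 with arrays centred on their medians. It was lower in phr123 than in phr3 as well (−1.53, adjusted p = 1.23e-07), where 41% changed, 19.1% (5461) upward and 21.9% (6253) downward, or 6284 and 4151 with arrays centred. With the array labelled phr123 replicate 1 left out, the difference of phr123 was −1.83 from WT (adjusted p = 6.15e-08), −1.11 from phr1 (adjusted p = 8.8e-06) and −1.49 from phr3 (adjusted p = 5.12e-07). The single mutants themselves were not separated by the test (phr1 against phr3, log2 difference −0.39, 95% interval −0.63 to −0.14, adjusted p = 0.115). Between phr1 and phr3, 0.678% of tested probe sets (194) were higher and 0.997% (285) lower in phr1, or 59 and 219 with arrays centred.

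The 2 probe sets of PT1 disagreed. At Os.12092.1.S1_at the signal was 1723.3, 1653.3 and 1560.7 in phr1, 2405.1, 1715.4 and 1801.0 in phr3, 603.0, 315.8 and 273.6 in phr123, and 2895.1, 2332.5 and 2134.3 in WT. The phr123 arrays stood far below the rest, with replicate 1 the highest of the 3. The fall against WT was 6.52-fold (log2 difference −2.70, SE 0.2336, adjusted p = 5.03e-07), and 1.96% of all tested probe sets fell at least as far. It was −3.05 with the array labelled phr123 replicate 1 left out (adjusted p = 3.97e-09). This probe set was also lower in phr123 than in phr1 (log2 difference −2.14, adjusted p = 5.05e-06) and in phr3 (−2.39, adjusted p = 1.9e-06). These were −2.48 and −2.73 with that array left out (adjusted p = 3.18e-08 and 1.34e-08).

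At Os.12092.2.S1_a_at the phr123 arrays were the highest. The signal was 1689.7, 1456.8 and 1613.1 in phr1, 1727.1, 2151.9 and 2307.7 in phr3, 3486.8, 4242.8 and 4191.2 in phr123, and 1406.7, 1534.6 and 1617.7 in WT. The rise in phr123 was 2.61-fold over WT (log2 difference 1.38, SE 0.1193, adjusted p = 4.95e-07), with no overlap between the groups, and the log2 difference was 1.47 when the array labelled phr123 replicate 1 was left out (adjusted p = 4.8e-07). Of all tested probe sets, 4.88% rose at least as far. Against phr1 this probe set was higher in phr123 by 1.32 on the log2 scale (adjusted p = 7.94e-07) and against phr3 by 0.95 (adjusted p = 2.02e-05), or by 1.41 and 1.04 without that array (adjusted p = 7.6e-07 and 1.56e-05). PT1 thus has no single direction in phr123: it fell by one probe set and rose by the other.

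Neither PT1 probe set passed the test in a single mutant. In phr1 the log2 difference was −0.57 at Os.12092.1.S1_at (95% interval −1.07 to −0.06, SE 0.2336, adjusted p = 0.399). All phr1 arrays lay below all WT arrays at this probe set. With the array labelled phr123 replicate 1 left out, the SE was 0.142 and the adjusted p was 0.0816. Over the 12 fits with an array left out, that adjusted p was the lowest, and the highest was 0.658. At Os.12092.2.S1_a_at the phr1 difference was 0.06 (95% interval −0.19 to 0.32, adjusted p = 0.92), and −0.13 with arrays centred on their medians. In phr3 the differences were −0.32 at the first probe set (95% interval −0.82 to 0.18, adjusted p = 0.658) and 0.43 at the second (0.18 to 0.69, adjusted p = 0.096). The second passed the test when phr3 replicate 1, the lowest of the phr3 arrays, was left out (0.55, adjusted p = 0.0271). This was the only 1 of 12 fits with an array left out in which it passed (highest adjusted p = 0.312).

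The disagreement was measured within each array as the log2 signal of Os.12092.1.S1_at minus that of Os.12092.2.S1_a_at, a quantity that does not change with the scaling factor of an array. It averaged 0.05 ± 0.12 in phr1, −0.07 ± 0.47 in phr3, −3.41 ± 0.76 in phr123 and 0.68 ± 0.33 in WT (mean ± SD, n = 3). The genotypes differed in it (exact permutation test of the F statistic over the 4 genotypes, p = 0.00182 over 369600 arrangements, adjusted p = 0.00364 over 2 such tests). The phr123 values were −2.53, −3.75 and −3.94, all far below the other 9 arrays, and phr123 minus WT came to −4.09, or −4.52 with the array labelled phr123 replicate 1 left out. Without that array, the same test over the 4 genotypes gave an exact permutation p of 0.00182. The same difference between Os.46160.2.S1_at and Os.46160.2.S1_x_at of PT8 averaged −0.32 ± 0.20 in phr1, −0.42 ± 0.22 in phr3, −0.41 ± 0.09 in phr123 and −0.41 ± 0.07 in WT, and no difference between genotypes was found (exact permutation p = 0.846). These PT8 probe sets were designed on one cDNA and those of PT1 on different cDNAs, so the PT8 pair is not a like comparison for the PT1 pair.

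**Figure D2:**
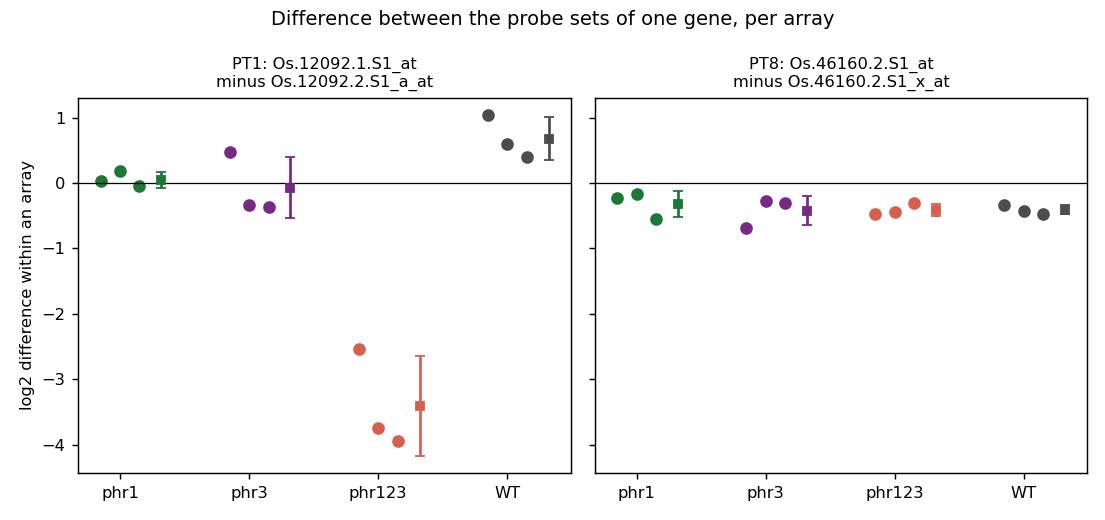
Log2 difference between the 2 probe sets of PT1 (left) and between the 2 bright probe sets of PT8 (right) on each array, by genotype. Circles are single arrays, and squares with bars are the mean ± SD of 3 arrays. The PT1 difference averages −3.41 in phr123 and 0.68 in WT. The PT8 difference, between probe sets designed on one cDNA, averages between −0.42 and −0.32 in all 4 genotypes.

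Signs of RNA quality were read beside this disagreement, since probe sets at different distances from the 3' end can respond unequally to it. For GAPDH, the log2 signal of the control at the 3' end minus that at the 5' end averaged 1.69 ± 0.14 in phr123 and 2.35 ± 0.14 in WT (n = 3 each). The exact 2-sided permutation p was 0.1, and no smaller one can come from 3 arrays against 3. For the same measure of 3 other transcripts (actin, cyclophilin, ubiquitin) the exact permutation p of each mutant against WT lay between 0.2 and 1. The part of the GAPDH shift in the PT1 disagreement was not tested. The files used here do not place the PT1 probe sets on the gene, so which stretch of the transcript each reads is not known here.

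PT8 was highest in phr123 and lowest in phr1. At Os.46160.2.S1_at the signal was 1156.5, 1163.9 and 1049.8 in phr1, 1230.9, 1841.5 and 1974.3 in phr3, 2979.2, 3048.0 and 3546.2 in phr123, and 1616.8, 1441.7 and 1521.9 in WT. Every phr123 array lay above every other array, and every phr1 array below every other. The rise in phr123 was 2.09-fold over WT (log2 difference 1.06, SE 0.1476, adjusted p = 4.84e-05), and the log2 difference was 1.11 when the array labelled phr123 replicate 1 was left out (adjusted p = 0.000109).

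The second bright probe set, Os.46160.2.S1_x_at, had less spread in phr3, phr123 and WT, and more in phr1. Its signal was 1360.2, 1312.5 and 1536.2 in phr1, 1966.8, 2237.2 and 2440.2 in phr3, 4116.1, 4173.3 and 4382.8 in phr123, and 2045.3, 1935.1 and 2107.7 in WT. The order of the genotypes was the same as at the first, and the phr3 and WT arrays overlapped at both. In phr123 it rose 2.08-fold over WT (log2 difference 1.06, SE 0.09575, adjusted p = 8.04e-07), and the log2 difference was 1.08 when the array labelled phr123 replicate 1 was left out (adjusted p = 3.26e-06). Of all tested probe sets, 7.69% rose at least as far.

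In phr1, PT8 fell by 0.53 on the log2 scale at Os.46160.2.S1_x_at (SE 0.09575, 1.45-fold, adjusted p = 0.0163). The call was lost when any of 4 arrays was left out: WT replicate 1 (adjusted p = 0.0605), WT replicate 3 (0.0738), phr1 replicate 1 (0.0501) or phr1 replicate 2 (0.0832). It also ended when eBayes was run with no trend (adjusted p = 0.0799). At Os.46160.2.S1_at the phr1 difference was −0.44 (95% interval −0.76 to −0.13) and did not pass (adjusted p = 0.251). In phr3 the differences were 0.11 and 0.12 (95% intervals −0.21 to 0.43 and −0.08 to 0.33, adjusted p = 0.845 and 0.686).

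The single mutants differed from each other in PT8. Os.46160.2.S1_x_at was lower in phr1 than in phr3 by 0.66 on the log2 scale (adjusted p = 0.00341), in a comparison where 1.68% of all tested probe sets changed. In the same comparison 3 of the 5 markers of dividing tissue were higher in phr1, and their part in the PT8 difference was not tested. At Os.46160.2.S1_at the difference was −0.55 and did not pass (95% interval −0.87 to −0.24, adjusted p = 0.083), but it did without phr3 replicate 1, whose signal of 1230.9 was the lowest of the phr3 arrays (−0.76, adjusted p = 0.0036). That was the only 1 of 12 fits with an array left out in which it passed (highest adjusted p = 0.28). The gap between phr123 and phr1 was 1.5 at Os.46160.2.S1_at (adjusted p = 1.81e-06) and 1.59 at Os.46160.2.S1_x_at (adjusted p = 1.79e-08). Between phr123 and phr3 it was 0.95 (adjusted p = 0.00014) and 0.94 (adjusted p = 2.89e-06). With the array labelled phr123 replicate 1 left out, these gaps were 1.55 and 1.61 to phr1, and 1.00 and 0.96 to phr3, and all 4 passed the test (highest adjusted p = 0.000286).

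The third PT8 probe set, Os.46160.1.S1_at, gave no usable level. Its signal lay between 0.4 and 57.5 over the 12 arrays, at or below the reporter level of its array on each of them, and it did not pass the filter on low signal. It therefore says nothing about a change of PT8 in either direction.

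Read as an order of levels, phr123 came first in PT8, followed by phr3, WT and phr1 at both bright probe sets, and the neighbours phr3 and WT were not separated by the test. The step between WT and phr1 passed at Os.46160.2.S1_x_at and not at Os.46160.2.S1_at. At PT4 the order was WT, phr3, phr1 and phr123, and of these steps only that between phr1 and phr123 passed the test. At PT1 the order was WT, phr3, phr1 and phr123 by Os.12092.1.S1_at, and phr123, phr3, phr1 and WT by Os.12092.2.S1_a_at. In both PT1 orders the step to phr123 passed the test and the other steps did not.

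A further contrast, here called the departure from the sum, asked whether phr123 lay where the phr1 and phr3 changes added together would put it. Since phr123 lacks PHR2 as well, the contrast holds the loss of PHR2 together with any joint effect of the other losses, and these cannot be told apart. It passed at all 5 tested member probe sets, beside 30% of all tested probe sets, 13.5% (3869) above the sum and 16.4% (4703) below it, or 5952 and 2187 with arrays centred. PT4 lay below the sum (departure −0.80, adjusted p = 0.00163), a call that ended with centred arrays (−0.44, adjusted p = 0.199). PT1 lay below it at Os.12092.1.S1_at (−1.82, adjusted p = 0.000877) and 0.89 above it at Os.12092.2.S1_a_at (adjusted p = 0.00121). PT8 lay above it by 1.39 at Os.46160.2.S1_at (adjusted p = 0.000189) and by 1.47 at Os.46160.2.S1_x_at (adjusted p = 3.03e-06), and in PT8 the phr1 difference pointed down while the phr123 difference pointed up. With the array labelled phr123 replicate 1 left out, the departures were −0.77 for PT4, −2.17 and 0.98 for PT1, and 1.44 and 1.49 for PT8.

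**Figure D3:**
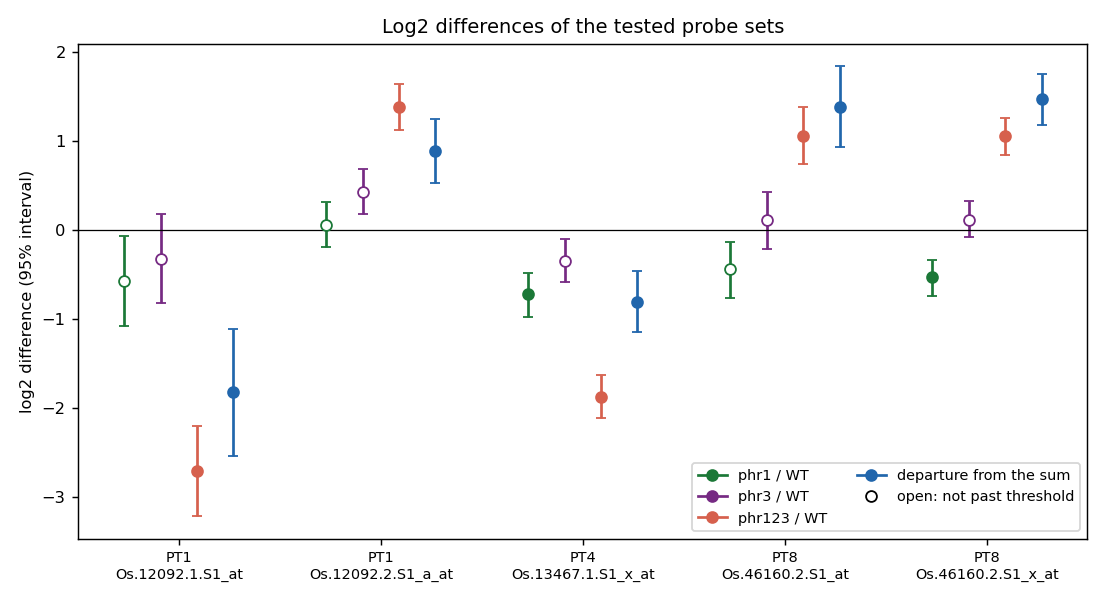
Log2 differences of the 5 tested probe sets (vertical axis) for phr1, phr3 and phr123 against WT and for the departure of phr123 from the sum of the phr1 and phr3 differences. Bars are 95% intervals, filled points passed the test at an adjusted p of 0.05, and open points did not. The phr123 values run from −2.70 at Os.12092.1.S1_at to 1.38 at Os.12092.2.S1_a_at of the same gene.

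Over all comparisons with WT, 2 of the 5 tested member probe sets fell in phr1 and 0 rose, where 0.934% of all tested probe sets changed in either direction. In phr3, 0 fell and 0 rose, where 1.99% of all tested probe sets changed, and 2 of the 5 had an unadjusted p under 0.05, as did 12.3% of all tested probe sets. In phr123, 2 fell and 3 rose, where 41.5% changed, and those that rose included both bright PT8 probe sets, which were designed on one cDNA. The 3 comparisons share the WT arrays. The median log2 difference of the 3 genes depended on which PT1 probe set stood for PT1, with PT4 and PT8 read by their x_at probe sets. It was −0.57 in phr1, −0.32 in phr3 and −1.87 in phr123 with Os.12092.1.S1_at, and −0.53, 0.12 and 1.06 with Os.12092.2.S1_a_at, beside 0.01, 0.01 and 0.02 over all tested probe sets. In phr3 and phr123 the median thus has no settled sign.

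The other PHT1 genes were dim or gave no value. Of 9 others in the RefSeq table, 6 had a probe set annotated to them alone and 3 passed the filter on low signal, while PT5, PT10 and PT13 had none of this kind. The 3 tested were PT2, known for moving phosphate within the rice plant, and PT3 and PT12. None of them passed the test in any mutant against WT, and 0 of their 9 differences had an unadjusted p under 0.05. PT2 had signals from 26.0 to 73.6 in phr123 and from 35.5 to 99.3 in WT (log2 difference −0.72, 95% interval −2.24 to 0.80), with 2 of the 3 phr123 arrays at or below the reporter level. PT3, the neighbour of PT8, had 123.2 to 168.9 in phr123 and 34.3 to 217.6 in WT (0.37, 95% interval −0.90 to 1.63). PT12, the neighbour of PT1, had 28.7 to 57.7 in phr123 and 40.4 to 89.6 in WT. All 3 phr123 arrays of PT12 were at or below the reporter level, so no size is given for it. The interval of PT2 holds a fall as large as that of PT4 in phr123 (−1.87), and that of PT3 holds a rise as large as that of PT8 (1.06). PT6, a root uptake transporter, PT7 and the mycorrhiza-induced PT11 did not pass the filter.

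Phosphate export genes were among those lower in phr123. Of 11 genes for other phosphate transport, 3 had a probe set and all 3 were tested. In phr123, 2 fell and 0 rose, where 21% of all tested probe sets fell and 20.5% rose. In phr1 and phr3, 0 of the 3 changed, where 0.934% and 1.99% of all tested probe sets did. PHO1-2, which loads phosphate into the xylem of rice roots, had 580.9, 610.1 and 626.1 in phr123, and 1161.2, 1513.5 and 1160.2 in WT (log2 difference −1.07, adjusted p = 0.000278). Its other tested probe set showed a difference of 0.02 (adjusted p = 0.927), so the PHO1-2 probe sets disagreed. PHO1-3, a relative, had 189.2, 168.5 and 159.5 in phr123, and 458.0, 743.8 and 452.7 in WT (−1.64, adjusted p = 4.33e-05). PHT3, a mitochondrial phosphate carrier, differed by 0.57 (adjusted p = 0.347). The median of the list in phr123 was −1.07, beside 0.02 over all tested probe sets. With the array labelled phr123 replicate 1 left out, PHO1-2 differed by −1.04 (adjusted p = 0.00105) and PHO1-3 by −1.71 (adjusted p = 9.36e-05).

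SPX genes, whose proteins bind PHR factors when phosphate is plentiful, are themselves starvation genes and were read beside the transporters. Of 6 genes, 5 were measured. In phr1, SPX1, SPX2 and SPX3 fell and 0 rose, where 0.486% of all tested probe sets fell. The SPX3 call in phr1 (log2 difference −1.67, adjusted p = 0.00897) was lost when eBayes had no trend (adjusted p = 0.0574) and when WT replicate 1 (0.0552) or phr1 replicate 2 (0.0553) was left out. In phr3, where 0.731% fell, only SPX3 fell of these 5 (log2 difference −1.18, adjusted p = 0.044), a call that ended with each of 7 of the 12 arrays left out in turn and when eBayes had no trend (adjusted p = 0.128). In phr123, 4 fell and 1 rose, where 21% of all tested probe sets fell and 20.5% rose, with a median of −2.76 beside 0.02 over all tested probe sets.

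SPX1 had 1939.9, 1783.9 and 1790.1 in phr123, and 12831.5, 12048.7 and 12432.0 in WT (log2 difference −2.76, adjusted p = 9.5e-12). SPX5 was at or below the reporter level on all 3 phr123 arrays, so that its fall against WT was at least 43.5-fold (adjusted p = 4.33e-07), and at least 28.5-fold by its second probe set. SPX4 was the one that rose in phr123 (0.52, adjusted p = 0.025). The call was lost when WT replicate 1, WT replicate 3, phr123 replicate 2 or phr123 replicate 3 was left out (highest adjusted p = 0.108), and its dimmer probe set differed by −0.29 (adjusted p = 0.558). With the array labelled phr123 replicate 1 left out, the differences were −2.80 for SPX1, −2.83 for SPX2, −4.77 for SPX3 and 0.63 for SPX4 (adjusted p = 0.0129 for SPX4), and all 4 passed. The SPX3 signals in phr123 were 57.0, 34.3 and 75.7, near the reporter level and below it on 1 array, so the size of its fall is uncertain.

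Set side by side, SPX1 and PT4 each fell in phr1 and fell further in phr123. SPX2 had differences of −2.67 in phr1 and −2.76 in phr123, while PT4 had −0.72 and −1.87.

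**Figure D4:**
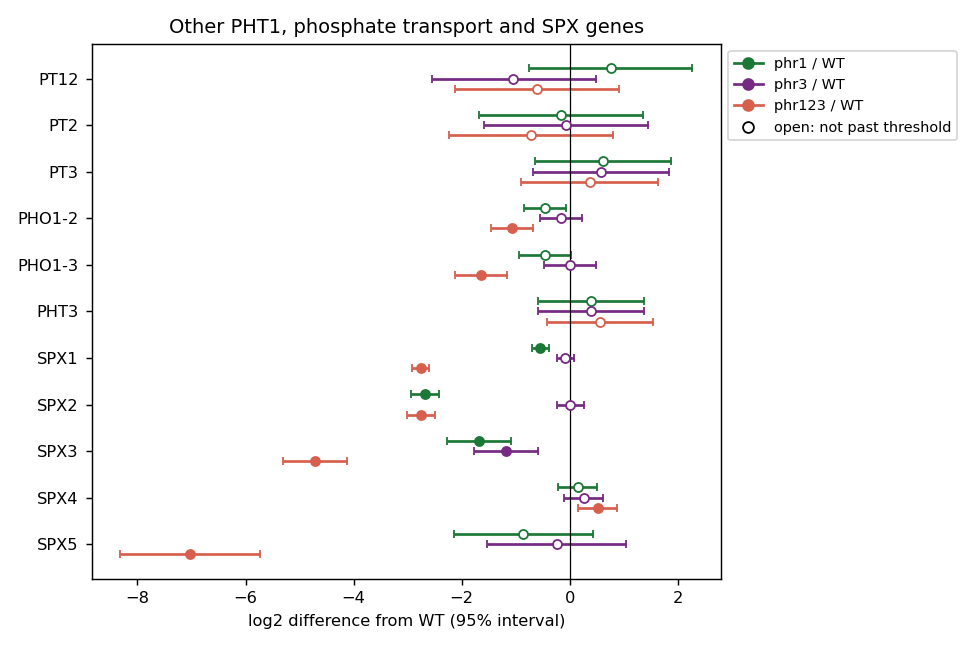
Log2 differences from WT (horizontal axis, bars are 95% intervals) of the tested genes for other PHT1 transporters, other phosphate transport and SPX proteins in phr1, phr3 and phr123, each by its brightest probe set. Filled points passed the test at an adjusted p of 0.05. PT2, PT3 and PT12 have wide intervals that hold 0, while SPX1 lies at −2.76 in phr123 and the SPX5 and PT12 values there are no measured sizes because their phr123 arrays were at or below the reporter level.

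How the members ran beside each other over the 12 arrays was described by Pearson correlations of log2 signal, given without a p because the arrays fall into 4 genotypes and phr123 stands apart. Os.12092.1.S1_at of PT1 had r = 0.94 with PT4 and −0.94 with the other PT1 probe set. Os.12092.2.S1_a_at had 0.92 with each bright PT8 probe set. With the genotype means subtracted, the correlation between PT4 and Os.12092.1.S1_at was 0.01, so it rested on the differences between genotypes, while the 2 PT1 probe sets still had −0.78 and Os.12092.2.S1_a_at had 0.67 and 0.69 with PT8. In phr3, phr123 and WT, replicate 1 was the highest array at the first PT1 probe set and the lowest at the second, while in phr1 replicate 1 was the highest at both.

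The genes whose signal ran most like each member were taken from 2143 genes with a symbol, as the 5 with the highest Pearson r over the 12 arrays. PT4 ran most like the glutaredoxin gene GRXS11 (r = 0.982), OsCASPL5A1 (0.979), the thioredoxin gene OsTrx03 (0.97), MGD3 (0.967), which encodes a galactolipid synthase, and SPX1 (0.965). Of these 5, GRXS11, OsTrx03, MGD3 and SPX1 also fell in phr1 as PT4 did, with log2 differences from −0.57 to −0.31. Since the 5 were picked for likeness over arrays that include phr1, a shared fall is partly set by the choice. With genotype means subtracted, r with PT4 was 0.19 for GRXS11, 0.45 for OsCASPL5A1, −0.23 for OsTrx03, 0.05 for MGD3 and 0.13 for SPX1. MGD3 had −0.57 in phr1 (adjusted p = 0.00653) and −2.15 in phr123 (adjusted p = 7.31e-10).

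Os.12092.1.S1_at of PT1 ran most like UGD4 (r = 0.979), the cellulose synthase gene CESA8 (0.979), GLO3 (0.978), CSLF6 (0.976), which encodes a synthase of mixed-linkage glucan of the cell wall, and OsCASPL1U3 (0.976). All 5 fell in phr123, with log2 differences from −2.70 to −1.25, and 0 of them changed in phr1 or phr3. Os.12092.2.S1_a_at ran most like MAPKK1 (0.985), DXPS (0.98), JAZ6 (0.978), 4CL5 (0.976) and JAZ12 (0.974). JAZ genes encode repressors of jasmonate signalling, and 4CL5 encodes an enzyme of phenylpropanoid synthesis. All 5 rose in phr123, from 0.78 for MAPKK1 to 3.98 for JAZ12 on the log2 scale, and JAZ6, 4CL5 and JAZ12 rose in phr3 as well (0.71, 0.76 and 1.74). The 2 probe sets of PT1 shared none of the 5, which was fixed beforehand by their r of −0.94 with each other. The directions of the listed genes in phr123 are likewise largely set by the choice.

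PT8 ran most like NCBP (r = 0.98), JAZ11 (0.971), SGR (0.969), which encodes a protein of chlorophyll breakdown, MHX1 (0.957) and JAZ8 (0.956) by Os.46160.2.S1_at. By Os.46160.2.S1_x_at it ran most like MHX1 (0.975), RH10 (0.969), the potassium transporter gene HAK1 (0.967), CML4 (0.966) and PAL06 (0.966). MHX1 was the 1 gene on both lists. All 9 of these genes rose in phr123, from 0.34 for NCBP to 3.23 for JAZ11 on the log2 scale, and 0 of them passed the test in phr1 or phr3. These lists describe likeness in these 12 arrays, in which 41.5% of tested probe sets changed in phr123, so many genes share the largest step. By Spearman correlation between 0 and 2 of the 5 genes stayed on each list, and with genotype means subtracted also between 0 and 2.

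**Figure D5:**
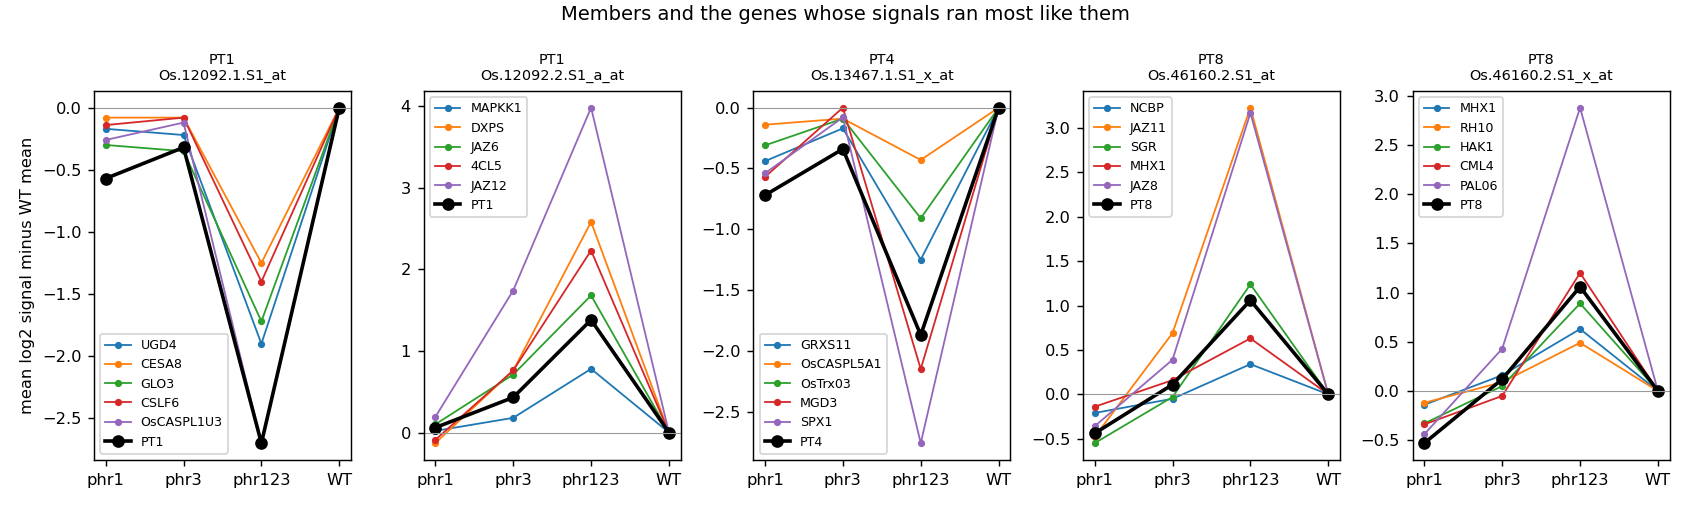
Mean log2 signal minus the WT mean (vertical axis) in phr1, phr3, phr123 and WT for each tested member probe set (black) and the 5 genes with the highest correlation to it (colours), 1 panel per probe set. Lines join the values of one gene. The genes beside Os.12092.1.S1_at and PT4 are lowest in phr123, and those beside Os.12092.2.S1_a_at and PT8 are highest there.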

How the data were processed

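RNA of 12 samples, 3 per genotype, was hybridised to the Affymetrix rice array with a biotin label, per the labels. The authors deposited 1 linear intensity for each probe set of each array, made with MAS5 (version not stated in the labels), per the submitters' processing notes. The trimmed mean was 500.1 on every array, so the deposited intensity values were scaled array by array.

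Values of 0 (8 in all) were set to 0.1, and log2 signals were used as they stood. After 123 AFFX and 64 reporter controls were left out, the 28597 probe sets with a mean log2 signal at or above the median (a signal of 49.4) were tested in R 4.3.3 with limma 3.58.1: lmFit with 1 mean per genotype over 12 arrays (8 residual degrees of freedom), eBayes with a trend, and Benjamini-Hochberg adjustment over all tested probe sets, with a threshold of 0.05. The fit was also run on simulated data with independent normal noise, which leaves out effects shared by an array, and the outcome is not given here. Each adjusted p without another name comes from this fit. The precision is limited by the number of arrays, 3 in each genotype. Array medians, in log2, differed from those of WT by 0.19 in phr1, 0.08 in phr3 and −0.10 in phr123.

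For the targeted and SPX genes, a bound on the fold change is given where every array of a mutant was at or below its reporter level and every WT array above its own. The bound is taken against the higher of that level and the signal. No bound was made for PT12, which had 1 WT array at or below the reporter level as well. The reporter level leaves out 3 probe sets of 1 reporter sequence, after their signal was seen.

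Named are all member probe sets, the targeted genes, the other PHT1 genes, list genes past the threshold in any mutant, and the 5 genes most like each tested member probe set. Gene names come from the annotation given for the array and RefSeq. Probe sets annotated to several genes were assigned to none. PT9 and the list of genes for PHT1 traffic and turnover matched no gene. The members and lists were chosen with earlier results of these data known. Alternatives were quantile normalization, centring on medians, no filter, a pseudocount of 16, other moderation, a replicate block, fits of the named groups alone and each array left out.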

Additional observations from a re-analysis of the deposited data

Results flagged for a closer look

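Signal appeared in phr123 at a reporter control that the comparisons do not use. The 3 probe sets of this 1 reporter sequence averaged 421.6, 124.5 and 180.8 in phr123 (n = 3 arrays). The first of them had 373.5, 432.4 and 458.8 in phr123, and 119.0, 33.7 and 13.7 in WT. The phr123 samples thus exceeded the WT samples at all 3 probe sets, with no overlap.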

How the results depend on the processing

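Of 695 values of the 35 member comparisons under alternatives, 684 kept their direction and their side of the threshold, 6 lost the call, 3 gained one and 2 changed sign. Centring arrays on their medians turned Os.12092.2.S1_a_at in phr1 to −0.13 and ended the PT4 departure (−0.44). Without a trend in eBayes, Os.46160.2.S1_x_at in phr1 stayed at −0.53 but lost its call. With each array left out, differences ran from −0.60 to −0.49 for that one, from 0.35 to 0.55 for Os.12092.2.S1_a_at in phr3, from −0.02 to 0.32 for Os.46160.2.S1_at in phr3, and, in phr1 against phr3, from −0.52 to −0.30 for PT4 and from −0.76 to −0.42 for Os.46160.2.S1_at. PT4 gained its call there without phr3 replicate 2 (adjusted p = 0.0338). The PT8 probe set difference between phr123 and WT, 0.003, was −0.01 after quantile normalization and −0.049 to 0.039 with arrays left out; the cause was not tested. Counts of probe sets called were 267 in phr1 against WT (121 without a trend, 128 to 384 with arrays left out), 569 in phr3 against WT (298 centred, 299 without a trend, 331 to 718) and 479 in phr1 against phr3 (278 centred, 169 without a trend, 294 in a fit of these groups alone, 162 to 580). Same-numbered arrays deviated from their genotype means with r from −0.0464 to 0.0323 in 18 pairs, and 1 of 12 arrays correlated best with its own number. Over all tested probe sets the numbers thus showed no sign of pairing the samples. At Os.12092.1.S1_at, where replicate 1 was the highest array in every genotype, a replicate block lowered the SE of phr123 against WT from 0.2336 to 0.162. A replicate block changed no call of the members and gave 235 probe sets called in phr1, 502 in phr3 and 11600 in phr123 against WT. The likeness with genotype means subtracted was added after seeing the data. Signals near the reporter level, as of PT2 and PT12, limit what can be shown for the other transporters.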
